A study of Mus musculus with 9 samples.

Results

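The Ifit family of the mouse was followed here through the 4 genes Ifit1, Ifit2, Ifit3 and Ifit3b, taken by name from a deposited table of 56748 genes. Ifit genes code for interferon-induced proteins with tetratricopeptide repeats, helical repeats that form a pocket or a surface for RNA and for partner proteins. Type I interferon binds its receptor, Janus kinases at the receptor activate the factor ISGF3, which contains STAT2 and IRF9 and binds interferon-stimulated response elements upstream of such genes. Some Ifit genes can also be induced by IRF3 directly, downstream of sensors of foreign nucleic acid. IFIT1 binds the capped end of RNA that lacks methylation on the ribose of the first nucleotide and keeps it from being translated, and human IFIT2 and IFIT3 assemble with IFIT1. In macrophages these genes are widely used as a readout of interferon signalling.

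The study sequenced RNA from 9 libraries of mouse RAW264.7 cells, an established macrophage line. The P-Mn/TI@mHSA group of 3 libraries received nanoparticles that carried nanoenzymes (materials with enzyme-like activity) and an inhibitor of TRAF6, the ubiquitin ligase through which Toll-like receptors signal to NF-kB. The P-Mn@mHSA group of 3 libraries received nanoparticles with the nanoenzymes, and the PBS group of 3 libraries, given PBS, was the control. All 3 groups were under what the labels call the model condition, with no further detail. The sources used here do not give dose, time or whether replicates were separate cultures. The p-values therefore rest on the spread among libraries, and that spread may be technical.

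Each library held 13994570 to 15543439 counts. Of 9 macrophage markers, 8 reached 1 FPKM (the read count scaled by gene length and library size), and Mertk did not. The macrophage markers summed to 2032 to 2199 FPKM in P-Mn/TI@mHSA, 2104 to 2124 FPKM in P-Mn@mHSA and 3087 to 3222 FPKM in PBS. The markers went both ways. Lyz2 stood at 350 to 444 FPKM in P-Mn/TI@mHSA, 406 to 482 FPKM in P-Mn@mHSA and 1390 FPKM in each PBS library, and Cd14, Itgam and Adgre1 were also below PBS in both particle groups. Csf1r, Cd68, Spi1 and Fcgr1 were above PBS in both, and Csf1r stood at 396 to 424 FPKM in P-Mn/TI@mHSA, 330 to 387 FPKM in P-Mn@mHSA and 268 to 298 FPKM in PBS. Markers of T, B, NK, dendritic, fibroblast, endothelial and epithelial cells all stayed under 1 FPKM, and 1 of 5 neutrophil markers, S100a8, passed it. The neutrophil markers summed to 0.194 to 1.22 FPKM in P-Mn/TI@mHSA, 0.509 to 1.10 FPKM in P-Mn@mHSA and 1.92 to 3.38 FPKM in PBS. Mitochondrial transcripts took 1.11 to 1.34% of counts in P-Mn/TI@mHSA, 1.31 to 1.79% in P-Mn@mHSA and 1.77 to 2.20% in PBS. These levels move with the groups, and their part in the Ifit results was not tested. Replicate 2 of P-Mn@mHSA stood farther from its group than any other library, with a chi-square per degree of freedom of 9.24 and 13.1 against the other two, where all other replicate pairs lay between 3.80 and 6.51. Values without it are given below, and for all but the members' fold changes and the counts of calls this alternative was chosen after seeing the data.

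The 4 genes lie together on the plus strand of chromosome 19 and are protein-coding. In RefSeq GRCm38.p6, Ifit2 (ENSMUSG00000045932) spans chr19:34550550-34576534, Ifit3 (ENSMUSG00000074896) chr19:34583119-34588982, Ifit3b (ENSMUSG00000062488) chr19:34607530-34613403 and Ifit1 (ENSMUSG00000034459) chr19:34640889-34650009. No other row of the deposited table overlapped a member. Ifit3 and Ifit3b are close copies: in GENCODE M21 their coding sequences matched at 1201 of 1212 bases (99.09%), with an identical run of 329 bases, whereas the other pairs of members matched at 62.56 to 69.24% of aligned bases. The start of the coding sequence of both is shown because it makes plain how little separates them. It is given from the start codon for 150 bases, with the 2 differing bases in capitals.

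Ifit3: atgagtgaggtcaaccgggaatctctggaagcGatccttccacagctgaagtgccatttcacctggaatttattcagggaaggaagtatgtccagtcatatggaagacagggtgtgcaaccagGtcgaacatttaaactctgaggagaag
Ifit3b: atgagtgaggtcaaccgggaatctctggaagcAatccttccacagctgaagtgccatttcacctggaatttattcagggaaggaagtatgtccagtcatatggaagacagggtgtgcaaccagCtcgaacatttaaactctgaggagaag

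Reads from such stretches fit both genes. Of the 50-base words in the transcript of Ifit3, 51.24% also occur in Ifit3b, and of those in Ifit3b 44.54% also occur in Ifit3. For Ifit1 the share found in other genes was 7.14%, nearly all in Ifit1bl2, and for Ifit2 it was 0%. These shares depend on the word length. With 100-base words they were 31.65% for Ifit3, 27.41% for Ifit3b, 3.285% for Ifit1 and 0% for Ifit2. The sources used here do not say how the authors counted reads with several matches, so the split of counts between Ifit3 and Ifit3b is uncertain, and values for their sum stand beside the results below.

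The stretches upstream of a RefSeq start site (GRCm38.p6, plus strand) are shown for the 3 members whose window held an interferon-stimulated response element core, the binding motif of ISGF3 and of IRF proteins. They run over 250 bases up to the start site, at chr19:34640639-34640888 for Ifit1, chr19:34583279-34583528 for Ifit3 and chr19:34607707-34607956 for Ifit3b. Capitals mark matches to the core, GAAA followed after any 2 bases by GAAA. They lie on the minus strand here and so read as the reverse complement.

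Ifit1: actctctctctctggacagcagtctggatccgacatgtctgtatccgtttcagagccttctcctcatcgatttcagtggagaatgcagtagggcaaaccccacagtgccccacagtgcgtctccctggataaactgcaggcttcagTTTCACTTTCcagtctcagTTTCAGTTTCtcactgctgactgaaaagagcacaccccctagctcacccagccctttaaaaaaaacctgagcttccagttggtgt
Ifit3: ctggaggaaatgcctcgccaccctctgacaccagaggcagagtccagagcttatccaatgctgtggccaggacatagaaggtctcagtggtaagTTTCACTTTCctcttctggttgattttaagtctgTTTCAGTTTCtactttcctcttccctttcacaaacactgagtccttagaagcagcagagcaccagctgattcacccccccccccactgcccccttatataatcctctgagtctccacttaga
Ifit3b: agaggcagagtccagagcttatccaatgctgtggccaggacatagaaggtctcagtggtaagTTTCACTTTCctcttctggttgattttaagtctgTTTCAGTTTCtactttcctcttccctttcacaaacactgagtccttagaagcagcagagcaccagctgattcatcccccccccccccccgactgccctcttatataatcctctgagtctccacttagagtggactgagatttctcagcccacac

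Windows of 250 bases before to 50 bases after each start were searched on both strands. Ifit1, Ifit3 and Ifit3b each held 2 matches that did not overlap, while 0.221% of 32544 RefSeq promoter windows of the same length held 2 or more and 3.45% held at least 1. The pair of matches lay at -104 to -95 and -85 to -76 from the start site in Ifit1, at -156 to -147 and -122 to -113 in Ifit3, and at -188 to -179 and -154 to -145 in Ifit3b. The windows of Ifit3 and Ifit3b, aligned to each other, matched at 258 of 260 bases, so these are copies of one sequence and not independent matches. The cores were not particular to the members. A window of Ifit1bl2, on the opposite strand, shared 245 bases of genome with that of Ifit1 and held the same 2 cores. Each window searched for Ifit1bl1, another Ifit-like gene, held 1 core. For Ifit2 a pair of RefSeq windows was searched, and neither held the core. The start sites used for Ifit2, Ifit3 and Ifit3b lie inside the gene spans given above, and apart from the part of 1 Ifit2 window that reaches before its span, the bases before those spans were not searched. One Ifit2 window held a gamma-activated site, TTCNNNGAA, a motif of interferon gamma responses, at -241 to -233, as did 8.33% of windows. A form of the NF-kB site, GGG followed after any 2 bases by TTTCC, was in 0 of the members' windows and in 1.61% of all windows. A match says only that these letters are present.

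**Figure D1:**
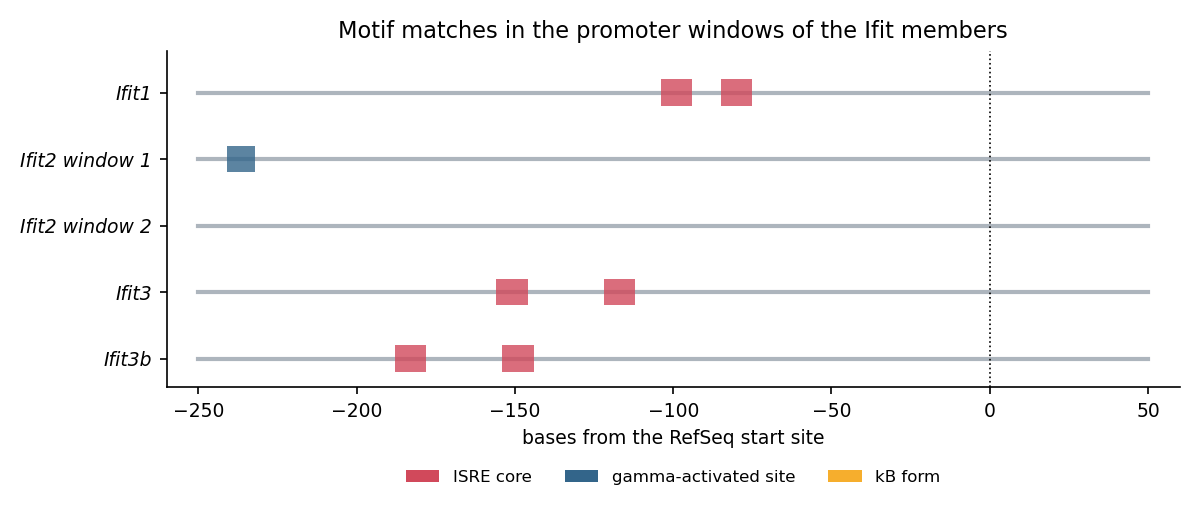
Matches to the response element core, the gamma-activated site and the NF-kB form in RefSeq promoter windows of the Ifit genes, with distance from the start site in bases on the horizontal axis and 1 row per window. Ifit1, Ifit3 and Ifit3b carry 2 response element cores each, and the Ifit2 windows searched carry none.

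The members were lowest in PBS, highest in P-Mn@mHSA and between them, by their means, in P-Mn/TI@mHSA. All 4 members rose in P-Mn@mHSA over PBS, by 2.07-fold for Ifit2 to 4.32-fold for Ifit3. In P-Mn/TI@mHSA over PBS, Ifit1 and Ifit3 rose by 1.72-fold and 1.70-fold, while Ifit2 and Ifit3b did not pass the test. All 4 members fell in P-Mn/TI@mHSA over P-Mn@mHSA, by 1.72-fold for Ifit2 to 2.90-fold for Ifit3b. In bulk RNA, a change in the number of cells that express a gene and a change in RNA per cell cannot be told apart.

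These counts read differently against the background of each comparison. A gene was called when the Benjamini-Hochberg adjusted p of edgeR's quasi-likelihood test, over all 12454 genes tested, was under 0.05. All 4 members passed the filter on low counts. Between P-Mn@mHSA and PBS, 4 of 4 members were called higher, where 48.5% of genes were called, 24.3% higher and 24.1% lower. Between P-Mn/TI@mHSA and PBS, 2 of 4 members were called higher, where 54.4% of genes were called, 27.1% higher and 27.3% lower. Between P-Mn/TI@mHSA and P-Mn@mHSA, 4 of 4 members were called lower, where 3.82% of genes were called, 1.48% higher and 2.34% lower. Libraries of all 4 members did not overlap between P-Mn@mHSA and PBS, where 27.3% of all genes tested did not overlap and were higher. Libraries of 2 members did not overlap between P-Mn/TI@mHSA and PBS, where 30.9% of all genes tested did not overlap and were higher. Libraries of all 4 members did not overlap between P-Mn/TI@mHSA and P-Mn@mHSA, where 11.7% of all genes tested did not overlap and were lower. The background of 476 genes called between P-Mn/TI@mHSA and P-Mn@mHSA hung on single libraries. It was 272, 202 and 794 genes without P-Mn@mHSA replicate 1, 2 or 3, and 129 and 213 genes without P-Mn/TI@mHSA replicate 1 or 3. The 4 members stayed called lower in each of these. The comparisons share libraries, so their fold changes are not independent of each other.

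**Figure D2:**
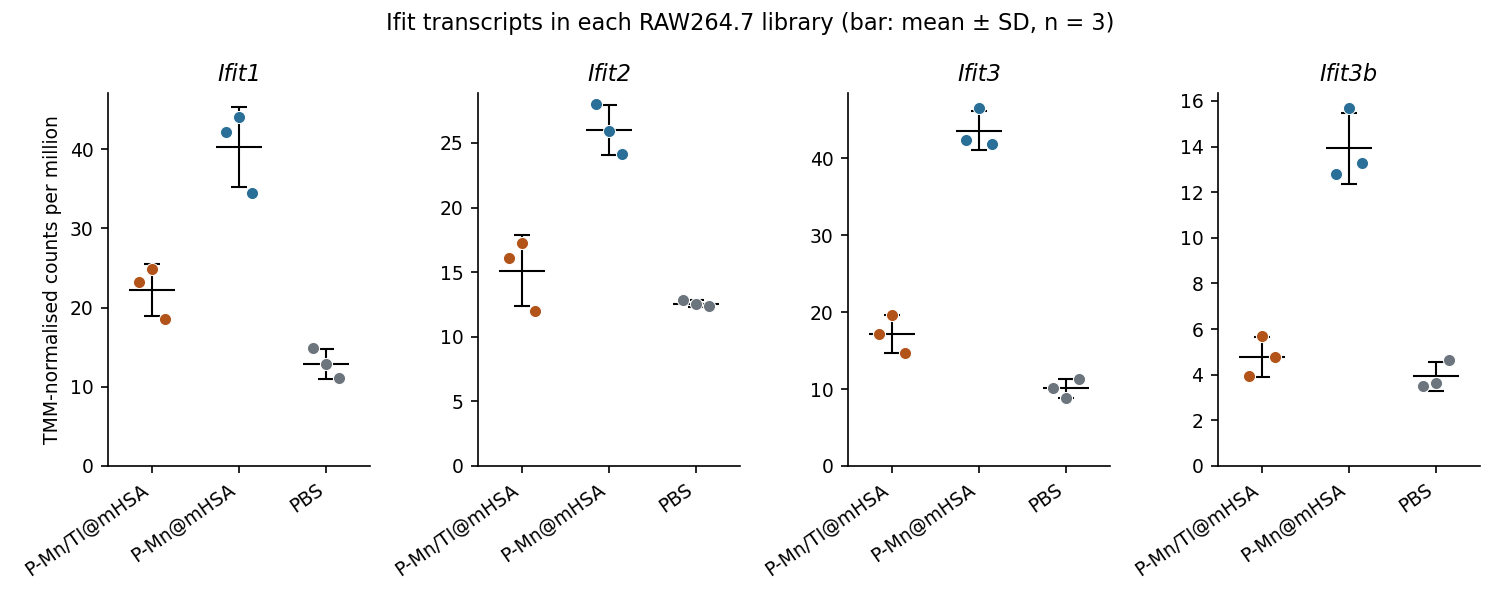
Normalised read counts (CPM) of each member in every library, with groups P-Mn/TI@mHSA, P-Mn@mHSA and PBS from left to right, points for the 3 libraries and bars for the mean and SD. The P-Mn@mHSA libraries lie above all others for each member, and those of P-Mn/TI@mHSA overlap PBS for Ifit2 and Ifit3b.

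Ifit3, which in human cells stabilises IFIT1 in a complex, had the largest log2 fold change of the 4 in P-Mn@mHSA over PBS. It stood at 17.2, 19.6 and 14.7 CPM (read counts scaled to library size by TMM) in P-Mn/TI@mHSA replicates 1 to 3, 42.4, 46.5 and 41.9 CPM in P-Mn@mHSA, and 10.1, 8.88 and 11.3 CPM in PBS. The 3 groups did not overlap, and every P-Mn@mHSA library was above every P-Mn/TI@mHSA library, which in turn was above every PBS library. The log2 fold change was 2.11 ± 0.120 (SE) in P-Mn@mHSA over PBS, with an edgeR adjusted p of 6.23e-12. Over PBS, P-Mn/TI@mHSA gave 0.77 ± 0.126 with an edgeR adjusted p of 2.71e-05. Between the particles, P-Mn/TI@mHSA over P-Mn@mHSA gave -1.34 ± 0.113 with an edgeR adjusted p of 2.97e-07, and Ifit3 ranked 3 by p among the 12454 genes.

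Ifit3b, the copy of Ifit3, was the least counted member, at 58 to 87 reads in P-Mn/TI@mHSA, 187 to 225 reads in P-Mn@mHSA and 51 to 69 reads in PBS. Its level was 3.93, 5.68 and 4.76 CPM in P-Mn/TI@mHSA, 12.8, 15.7 and 13.3 CPM in P-Mn@mHSA, and 3.51, 3.62 and 4.66 CPM in PBS. The P-Mn@mHSA libraries stood apart from both other groups, and P-Mn/TI@mHSA and PBS overlapped. The log2 fold change was 1.82 ± 0.176 in P-Mn@mHSA over PBS (edgeR adjusted p 2.66e-08) and -1.54 ± 0.170 in P-Mn/TI@mHSA over P-Mn@mHSA (edgeR adjusted p 8.99e-06), where Ifit3b ranked 13 by p. Over PBS, P-Mn/TI@mHSA gave 0.29 ± 0.193 with an edgeR adjusted p of 0.221, and a 95% interval of -0.12 to 0.69. Without PBS replicate 3 this log2 fold change was 0.43, without P-Mn/TI@mHSA replicate 1 it was 0.41, and without P-Mn/TI@mHSA replicate 2 it was 0.14, and it passed the threshold in none of these (edgeR adjusted p 0.107, 0.104 and 0.624).

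The counts of Ifit3 and Ifit3b were also added up. This sum does not depend on how shared reads were split between the copies. It would still depend on whether such reads were dropped or counted for both genes, which is not known. The log2 fold change of the sum was 2.04 in P-Mn@mHSA over PBS, 0.65 in P-Mn/TI@mHSA over PBS and -1.39 in P-Mn/TI@mHSA over P-Mn@mHSA. All 3 passed the threshold, with edgeR adjusted p of 3.35e-12, 7.60e-05 and 7.03e-08.

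Ifit1, the cap-binding member, stood at 23.2, 24.9 and 18.6 CPM in P-Mn/TI@mHSA, 42.1, 44.1 and 34.5 CPM in P-Mn@mHSA, and 14.9, 12.8 and 11.1 CPM in PBS. No 2 groups overlapped. The log2 fold change was 1.64 ± 0.130 in P-Mn@mHSA over PBS (3.11-fold, edgeR adjusted p 1.38e-09). It was 0.78 ± 0.133 in P-Mn/TI@mHSA over PBS (edgeR adjusted p 4.10e-05), and -0.86 ± 0.122 in P-Mn/TI@mHSA over P-Mn@mHSA (edgeR adjusted p 0.000246). Ifit1bl2, whose transcript shares 7.06% of the 50-base words of Ifit1, had 5 to 20 reads per library, and Ifit1bl1 had 0 to 8. Ifit1bl2 was not called in any comparison (edgeR adjusted p 0.267 in P-Mn@mHSA over PBS, 0.466 in P-Mn/TI@mHSA over PBS and 0.833 in P-Mn/TI@mHSA over P-Mn@mHSA), and Ifit1bl1 was too low to test.

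Ifit2, which in human cells binds AU-rich RNA, had the smallest log2 fold change of the 4 in P-Mn@mHSA over PBS. It stood at 16.1, 17.2 and 11.99 CPM in P-Mn/TI@mHSA, 28.0, 25.9 and 24.1 CPM in P-Mn@mHSA, and 12.9, 12.5 and 12.4 CPM in PBS. Replicate 3 of P-Mn/TI@mHSA lay below all PBS libraries and the other two lay above them. The log2 fold change was 1.05 ± 0.127 in P-Mn@mHSA over PBS (edgeR adjusted p 7.54e-07) and -0.78 ± 0.125 in P-Mn/TI@mHSA over P-Mn@mHSA (edgeR adjusted p 0.000881). For P-Mn/TI@mHSA over PBS it was 0.27 ± 0.132 with an edgeR adjusted p of 0.0935 and a 95% interval of -0.0078 to 0.54. This call rested on 1 library: without P-Mn/TI@mHSA replicate 3 the log2 fold change was 0.41 with an edgeR adjusted p of 0.0107.

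Without P-Mn@mHSA replicate 2, the library that stood apart, the log2 fold changes over PBS were 1.57 for Ifit1, 1.06 for Ifit2, 2.06 for Ifit3 and 1.73 for Ifit3b. Those of P-Mn/TI@mHSA over P-Mn@mHSA were -0.78, -0.79, -1.29 and -1.44 in the same order. All 8 kept their call. The mean share of Ifit3 in the family's summed FPKM in P-Mn@mHSA was then 46.7%, that of Ifit2 was 12.8%, and the ratio of Ifit3 to Ifit2 was 3.40 to 3.91, over 2 libraries.

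**Figure D3:**
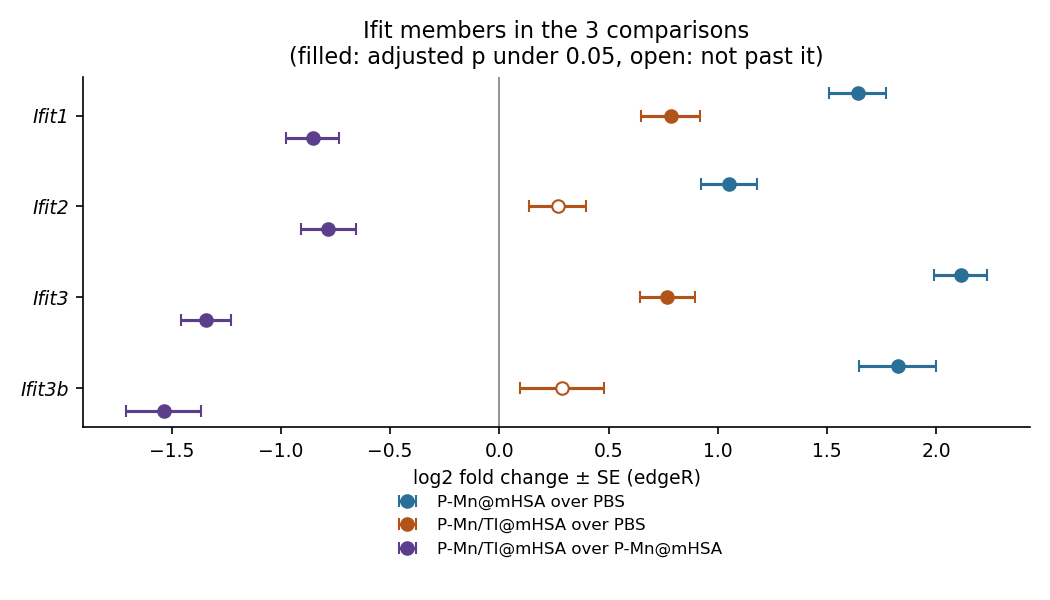
Log2 fold changes of the 4 members in the 3 comparisons, with points for the estimate and bars for the standard error. The 95% intervals, which are not drawn, reach below 0 for Ifit2 and Ifit3b in P-Mn/TI@mHSA over PBS. All other 95% intervals lie on one side of 0.

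Per length, Ifit3 was the most abundant member by its mean in each group, as its reads were split from those of Ifit3b, which is uncertain. It averaged 9.79 ± 1.44 FPKM in P-Mn/TI@mHSA, 24.8 ± 1.48 FPKM in P-Mn@mHSA and 5.73 ± 0.684 FPKM in PBS (SD, n = 3 each). Ifit1 came next with 8.33 ± 1.26 FPKM in P-Mn/TI@mHSA, 15.1 ± 1.9 FPKM in P-Mn@mHSA and 4.82 ± 0.699 FPKM in PBS. The ranges of Ifit3 and Ifit1 overlapped in P-Mn/TI@mHSA and PBS and stood apart in P-Mn@mHSA. Ifit2 averaged 3.83 ± 0.709 FPKM in P-Mn/TI@mHSA, 6.59 ± 0.489 FPKM in P-Mn@mHSA and 3.17 ± 0.0610 FPKM in PBS. Ifit3b averaged 2.38 ± 0.436 FPKM in P-Mn/TI@mHSA, 6.92 ± 0.783 FPKM in P-Mn@mHSA and 1.95 ± 0.317 FPKM in PBS. Ifit2 was above Ifit3b in all libraries of P-Mn/TI@mHSA and PBS, and the ranges of these 2 genes overlapped in P-Mn@mHSA. The 4 members summed to 20.6 to 27.8 FPKM in P-Mn/TI@mHSA, 49.5 to 57.5 FPKM in P-Mn@mHSA and 14.8 to 16.2 FPKM in PBS.

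Shares and ratios below that involve Ifit3 or Ifit3b rest on the uncertain split of reads between these copies. Members took different shares of the summed FPKM. Ifit3 took 40.2 ± 0.246% of it in P-Mn/TI@mHSA, 46.6 ± 1.52% in P-Mn@mHSA and 36.5 ± 3.18% in PBS. Ifit2 took 15.7 ± 0.988% in P-Mn/TI@mHSA, 12.4 ± 0.938% in P-Mn@mHSA and 20.3 ± 0.945% in PBS. The ratio of Ifit3 to Ifit2 in a library was 2.40 to 2.75 in P-Mn/TI@mHSA, 3.40 to 4.05 in P-Mn@mHSA and 1.60 to 2.05 in PBS, and no 2 groups overlapped. Of the 6 pairs of members, this was the only pair without overlap in any comparison. The ratio of Ifit3 to Ifit1 was 1.13 to 1.20 in P-Mn/TI@mHSA, 1.53 to 1.85 in P-Mn@mHSA and 1.04 to 1.55 in PBS, where PBS overlapped both particle groups. The ratio of Ifit3b to Ifit3 was 0.199 to 0.283 in P-Mn/TI@mHSA, 0.263 to 0.294 in P-Mn@mHSA and 0.303 to 0.360 in PBS, with the uncertain split of reads between these copies. In 18 exact two-sided permutation tests of such ratios, with 6 pairs of members in 3 comparisons, the smallest p was 0.1, which is the smallest that 3 libraries against 3 allow, and 0.164 after Benjamini-Hochberg adjustment.

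**Figure D4:**
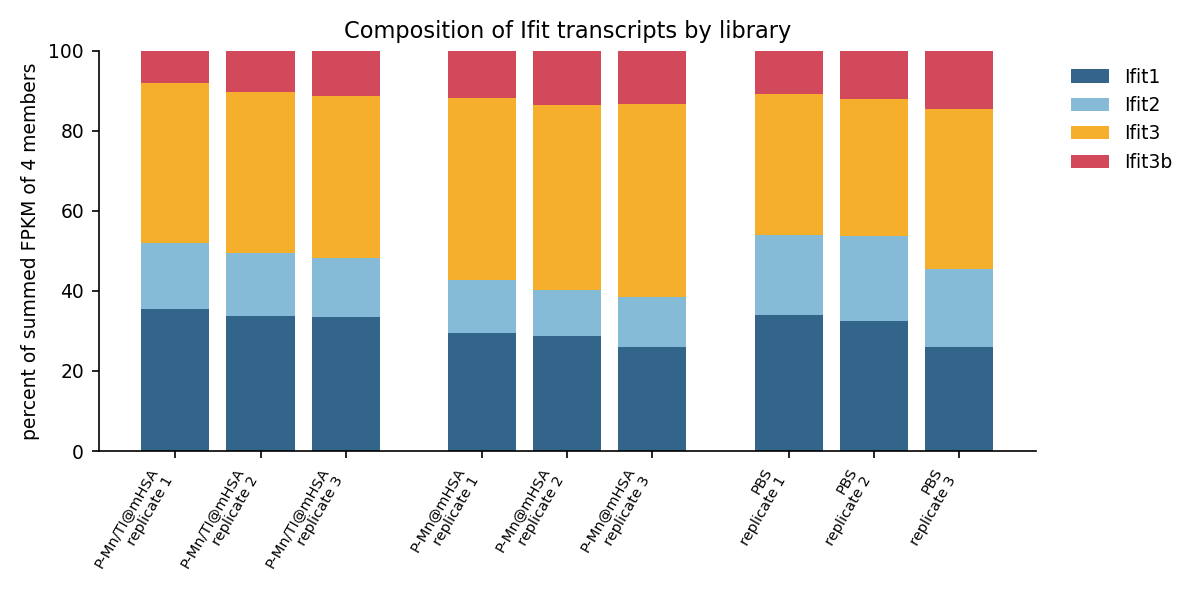
Share of each member in the summed FPKM of the 4 members, in percent, for each library with P-Mn/TI@mHSA, P-Mn@mHSA and PBS from left to right. Ifit3 takes 46.6% on average in P-Mn@mHSA, against 36.5% in PBS.

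Genes of the interferon pathway were read by their roles, from lists whose members were chosen with earlier results of these data known. As background for all list counts below, 24.3% of all genes tested were called higher and 24.1% lower in P-Mn@mHSA over PBS. These shares were 27.1% and 27.3% in P-Mn/TI@mHSA over PBS, and 1.48% and 2.34% in P-Mn/TI@mHSA over P-Mn@mHSA. Among 21 type I, type II and type III interferon genes, none had enough reads to be tested. Ifnb1, which codes for interferon beta, had 7, 3 and 1 reads in P-Mn/TI@mHSA, 4, 9 and 3 reads in P-Mn@mHSA, and 0 reads in each PBS library. All 6 particle libraries thus held a few Ifnb1 reads and the PBS libraries held none. Ifna13 had 1 read in all, and the other 19 genes had 0.

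Of 8 tested receptor and Janus kinase genes, 0 were called higher and 2 lower in P-Mn@mHSA over PBS, with a median log2 fold change of -0.05, and the same counts held in P-Mn/TI@mHSA over PBS, with a median of -0.07. Over all genes tested the median was -0.00227 and -0.0063. The called genes were the kinases Jak1 and Jak2, and Jak2 had a log2 fold change of -0.85 in P-Mn@mHSA over PBS and -1.01 in P-Mn/TI@mHSA over PBS. DESeq2 called none of the 8 higher in either comparison, and 0 in P-Mn@mHSA over PBS and 2 in P-Mn/TI@mHSA over PBS were higher at an unadjusted p under 0.05. Ifnar1 and Ifnar2, the type I interferon receptor chains, were not called in any comparison. In P-Mn/TI@mHSA over P-Mn@mHSA edgeR called none of the 8, and DESeq2 called none, with 1 lower at an unadjusted p under 0.05.

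Of 9 transcription factors of the pathway, 9 were called higher in P-Mn@mHSA over PBS (median 0.66) and 8 in P-Mn/TI@mHSA over PBS (median 0.53). In P-Mn@mHSA over PBS, Stat2 and Irf9, which belong to ISGF3, rose by 0.90 and 0.79 on the log2 scale. Between the particles, P-Mn/TI@mHSA over P-Mn@mHSA, 2 of the 9 were called lower: Irf7, which amplifies interferon production, gave -0.52 and Stat2 gave -0.50. Irf9 was -0.18 and did not pass the test. Irf7 was 0.45 in P-Mn@mHSA over PBS and -0.07 in P-Mn/TI@mHSA over PBS, where it did not pass the test.

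Of 26 antiviral effector genes that act on RNA, 20 were called higher in P-Mn@mHSA over PBS (median 0.75). For P-Mn/TI@mHSA over PBS, 16 were called higher and 3 lower (median 0.58). Between the particles, P-Mn/TI@mHSA over P-Mn@mHSA, 14 were called lower (median -0.34), where the median of all genes was -0.00702. Rsad2, which codes for viperin, an enzyme that makes a chain-terminating nucleotide, had 137 ± 18.3 CPM in P-Mn/TI@mHSA, 247 ± 12.8 CPM in P-Mn@mHSA and 13.6 ± 1.08 CPM in PBS. Its log2 fold change in P-Mn/TI@mHSA over P-Mn@mHSA was -0.84 ± 0.0800 and that of Ifit3 was -1.34 ± 0.113. Isg20, an exonuclease that degrades RNA, gave -1.18 ± 0.0793 in the same comparison. Oasl2, of the oligoadenylate synthetase family, gave -0.82 ± 0.0804. In none of the 26 was P-Mn/TI@mHSA called above P-Mn@mHSA by edgeR or DESeq2, and 1 was higher at an unadjusted p under 0.05.

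Of 19 sensors and adaptors that induce interferon, 9 were called higher and 5 lower in P-Mn@mHSA over PBS (median 0.18), and 6 higher and 3 lower in P-Mn/TI@mHSA over PBS (median 0.13). In P-Mn/TI@mHSA over P-Mn@mHSA, 4 were called lower: Zbp1, Dhx58, Ifih1 and Ddx58, which sense nucleic acid, with log2 fold changes of -0.91, -0.42, -0.44 and -0.25. Ikbke, a kinase that activates IRF3, and Tlr4, the lipopolysaccharide receptor, were called lower in P-Mn@mHSA over PBS, with -0.80 and -0.82. Both were also called lower in P-Mn/TI@mHSA over PBS, with -0.98 and -1.15. No sensor was called higher in P-Mn/TI@mHSA over P-Mn@mHSA by edgeR or DESeq2, and 1 was higher at an unadjusted p under 0.05.

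Of 9 negative feedback genes, 3 were called higher and 2 lower in P-Mn@mHSA over PBS (median 0.09), and 3 higher and 1 lower in P-Mn/TI@mHSA over PBS (median 0.14). Usp18, which blocks the type I receptor, had a log2 fold change of 1.38 in P-Mn@mHSA over PBS, 0.90 in P-Mn/TI@mHSA over PBS and -0.48 in P-Mn/TI@mHSA over P-Mn@mHSA, and passed the test in all 3. Socs3, an inhibitor of Janus kinase signalling, was called lower in both, with -1.27 in P-Mn@mHSA over PBS and -1.49 in P-Mn/TI@mHSA over PBS.

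Some lists sit next to the Ifit proteins in function. Of 5 genes for capping and cap methylation, whose products build the capped ends of RNA, 1 was called lower in P-Mn@mHSA over PBS and 2 in P-Mn/TI@mHSA over PBS. Rnmt, which codes for a cap methyltransferase, was among them in both, with -0.22 and -0.42. Of 14 genes for subunits of translation initiation factor eIF3, which IFIT proteins bind, 6 were called higher and 3 lower in P-Mn@mHSA over PBS, and 6 higher and 4 lower in P-Mn/TI@mHSA over PBS. Eif3b rose in these by 0.43 and 0.51 on the log2 scale, and Eif3e was called lower, with -0.43 and -0.70. Between the particles edgeR and DESeq2 called none of either list, where 1 of the 5 and 2 of the 14 were lower at an unadjusted p under 0.05.

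Without P-Mn@mHSA replicate 2, the effectors called higher in P-Mn@mHSA over PBS numbered 19, with 1 called lower (median 0.74). Those called lower in P-Mn/TI@mHSA over P-Mn@mHSA numbered 12 (median -0.31). The counts for the transcription factors and the sensors were the same in both of these comparisons. In P-Mn@mHSA over PBS, 1 negative feedback gene was called lower, against 2 with all libraries, and 4 eIF3 genes were called lower, against 3. The log2 fold changes of Rsad2, Isg20 and Oasl2 in P-Mn/TI@mHSA over P-Mn@mHSA were then -0.84, -1.16 and -0.87, in that order. Over the genes of all lists in the 3 comparisons, 8 of 273 calls changed, and none was of a gene named above.

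**Figure D5:**
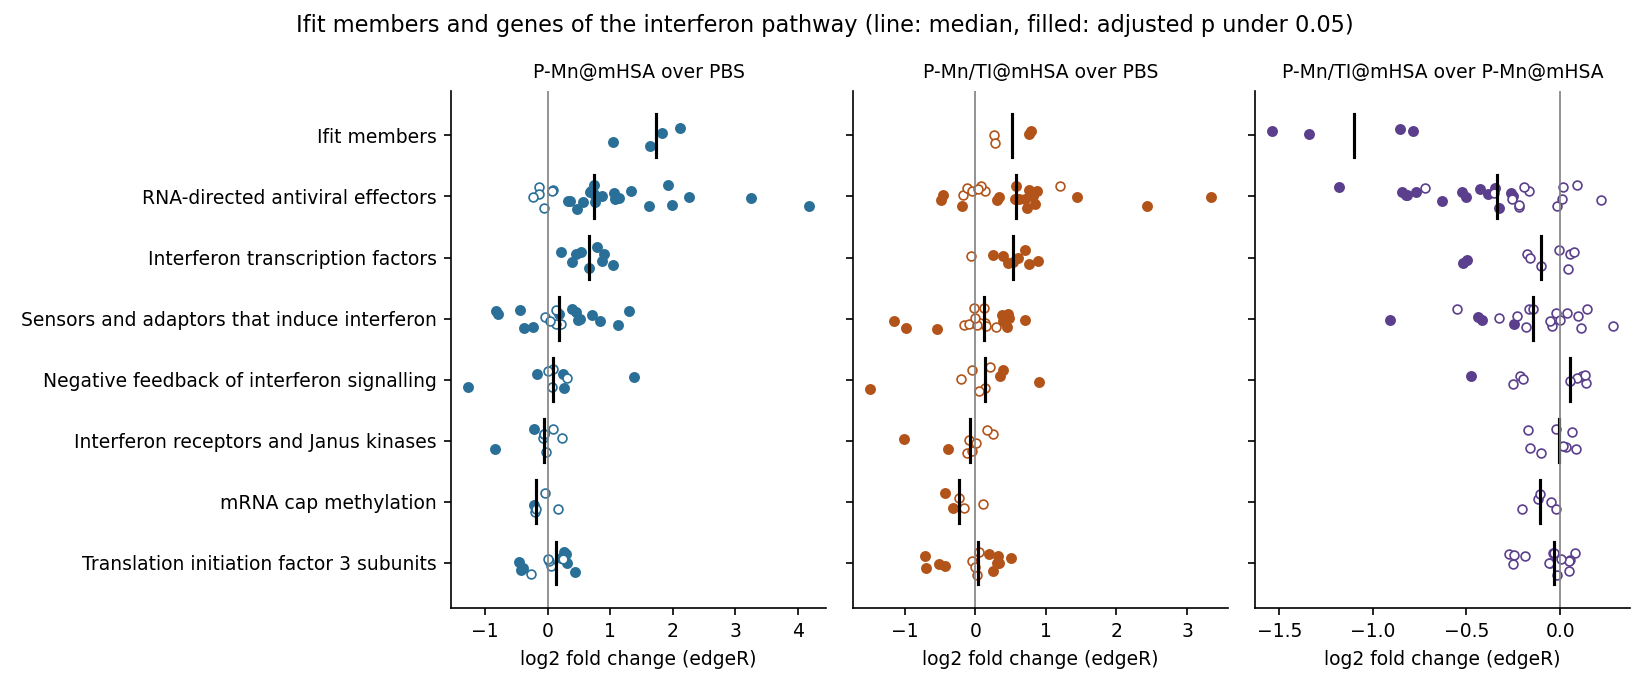
Log2 fold changes of the tested genes of each pathway list and of the 4 Ifit members in the 3 comparisons, 1 point per gene, with the group on top of the fold named on the panel. In P-Mn/TI@mHSA over P-Mn@mHSA all 4 Ifit members lie below 0, the effectors have a median of -0.34 with some genes above 0, and no receptor or kinase gene passed the test.

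The genes with the levels most like those of the members were named by the Pearson correlation, over the 9 libraries, between their log2 CPM and the mean of the members' standardised log2 CPM, among 8347 genes with a mean of at least 10 CPM. They were Zbp1 (r = 0.994), Isg20 (0.987), Epsti1 (0.984), Phf11d (0.977), Parp11 (0.976), Phf11b (0.976), Narf (0.973) and Hdac1 (0.971). Members, other Ifit-like genes and predicted, clone-named or pseudogene entries were left out before ranking. The 9 points share 3 groups, so these values describe likeness in these libraries. The log2 fold change in P-Mn/TI@mHSA over P-Mn@mHSA was -0.91 for Zbp1 and -1.02 for Phf11b, and -0.24 for Narf and -0.17 for Hdac1, which did not pass the test. Over the 8 libraries without P-Mn@mHSA replicate 2, r was 0.961 to 0.992 for these 8 genes, and their ranks by r lay between 1 and 12.

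The genes beside the cluster were read by position in the deposited table. The members span 99.3 kb, and the 5 nearest tested genes on each side were read, out to 1158 kb before (Rnls) and 1698 kb after (Pcgf5). In P-Mn@mHSA over PBS, 2 of these 10 were called higher and 2 lower, and the same counts held in P-Mn/TI@mHSA over PBS. Of all genes tested, 48.5% and 54.4% were called in these comparisons, in that order. In P-Mn/TI@mHSA over P-Mn@mHSA, 1 was called, where 3.82% of all genes were called. It was Lipa, a lysosomal lipase gene 23.2 kb away, at a log2 fold change of 0.23. The 10 genes lay between -0.24 and 0.23 in that comparison, whereas the members lay between -1.54 and -0.78. Slc16a12, 18.4 kb away on the other side, was called in none of the 3. Fas, the death receptor gene, was called lower with -2.89 in P-Mn@mHSA over PBS and -2.99 in P-Mn/TI@mHSA over PBS.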

How the data were processed

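RNA sequencing was deposited as 1 table with a raw read count and an FPKM value per gene and library, per the file headers. The counts were whole numbers, and each deposited FPKM was that count over the gene's length and a factor of its library. The build GRCm38 and the tools cutadapt 1.9 and FastQC are named per the submitters' processing notes. Aligner, counter, strand setting and the treatment of multiply matching reads were not given in the sources used here. Start positions of the members in the table differed from RefSeq GRCm38.p6 by -22618 to -22160 bases. The table's positions thus do not match the named build, and which build they follow was not settled here. RefSeq coordinates are printed for the members and promoters. The span of the cluster and the distances to the genes beside it come from the table's positions.

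From the counts, 1 edgeR 4.0.16 quasi-likelihood model (R 4.3.3, TMM, filterByExpr, 12454 genes, 99.9% of counts kept) was fitted to all 9 libraries, with a mean for each of the 3 groups and two-sided tests. A standard error is the log2 fold change divided by the square root of F. Levels are CPM, or FPKM between genes. limma 3.58.1 on log2(FPKM + 1) and DESeq2 1.42.0 were alternatives, with other scalings and filters, a replicate block, each library left out, and copies added up. The fit was tested on simulated data. Sequences are from RefSeq (promoters) and GENCODE M21 (coding). Protein sequences were not used here; the coding sequences were aligned instead, with Biopython 1.88.

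The members and lists were chosen with earlier results of these data known. The named genes are the members, the 3 genes of lowest p of a list in a comparison, 8 genes by likeness, and the 5 tested genes on each side of the cluster. Ifnb1, Ifna13, Ifnar1 and Ifnar2 are also given, chosen after their values were seen. Values of 1 gene that the rule names are not reported here. A count of 0 covers counting error only.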

Additional observations from a re-analysis of the deposited data

How the results depend on the processing

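Of 246 values of members under other settings, 242 kept their direction and side of the threshold and 4 passed it where the reported value did not, all in P-Mn/TI@mHSA over PBS. These were Ifit2 without P-Mn/TI@mHSA replicate 3, at a log2 fold change of 0.41 (without each library in turn, 0.15 to 0.41), Ifit2 and Ifit3b with all Ifit-like genes added up (0.58 for both, since the sum is shared), and Ifit3b with Ifit3 and Ifit3b added up (0.65). For Ifit2 in P-Mn@mHSA over PBS that shared sum of all Ifit-like genes was 1.63. The count of genes called between P-Mn/TI@mHSA and P-Mn@mHSA, 476, was 155 by limma with a pseudocount of 1 FPKM, 143 by limma with a pseudocount of 0.1 FPKM, 791 with no filter on low counts, and 129 to 794 without each library in turn. DESeq2 called 663 there. Replicate numbers did not pair the libraries: same-numbered libraries correlated at -0.066 to 0.061 and 3 of 9 correlated best with their own number. With the replicate block, 312 genes were called in P-Mn/TI@mHSA over P-Mn@mHSA, 5846 in P-Mn@mHSA over PBS and 6609 in P-Mn/TI@mHSA over PBS, and no member's call changed. Scaling by total counts alone gave 2263 higher and 3720 lower genes in P-Mn@mHSA over PBS, beside 3028 and 3007, and 2646 higher and 4063 lower in P-Mn/TI@mHSA over PBS, beside 3378 and 3403. In P-Mn/TI@mHSA over P-Mn@mHSA, the share of called genes that were higher was 38.7% with edgeR, and 27.1% and 25.2% in the 2 limma fits. The causes were not tested. Ifit3b had the fewest reads of the members, 51 to 69 in PBS.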
